A study of Mus musculus with 8 samples.

Results

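The genes described here are 32 members of the p53 pathway and of the apoptosis machinery, chosen by symbol and followed in messenger RNA from 8 mouse kidneys. Of them, 22 are p53 targets, 3 are the p53 gene Trp53 and its regulators Mdm4 and Cdkn2a, and 7 are other apoptosis genes. Mdm2, which is both a regulator and a target of p53, was counted with the targets. Apaf1, which is also a described p53 target, was kept with the other apoptosis genes. All 32 were found among the 49315 gene IDs of the deposited table, each as 1 ID, and 31 passed the filter on low counts that left 18485 genes. Cdkn2a did not pass.

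The 8 libraries came from frozen kidney, 4 labelled control and 4 labelled conditional knockout. The gene removed is Kdm1a, which encodes LSD1, an enzyme that takes methyl groups off histone H3. The labels call the controls both control and wild type, and give no age, sex, strain, Cre driver or recombined cell type. No label says whether the knockouts share an allele or a Cre transgene with the controls. The labels number the kidneys within each genotype and do not state that each came from a separate animal, so the p values measure the spread between these samples. Kdm1a transcripts were lower in the knockouts but still abundant, at 93.6 ± 1.88 counts per 1000000 counts (CPM, mean ± SD, n = 4) against 113 ± 4.77 CPM in the controls. The log2 fold change was −0.27 (SE 0.054, edgeR adjusted p 0.0194). Its adjusted p was between 0.0529 and 0.0765 without control replicate 1 or 3 or without knockout replicate 1, 2 or 4.

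p53 is a transcription factor that is kept low by the ubiquitin ligase Mdm2 and its partner Mdm4. When DNA damage or another stress releases it, it switches on genes that stop the cell cycle, repair DNA, restrain growth signals or start apoptosis. The mitochondrial branch of apoptosis is decided by the BCL2 family, in which Bax and Bak1 open the outer mitochondrial membrane, Bcl2, Bcl2l1 and Mcl1 hold them back, and the BH3-only proteins Bbc3, Pmaip1 and Bcl2l11 release that brake. Cytochrome c then assembles with Apaf1 and activates caspase 9. In the kidney this pathway is known from tubular injury and from the survival of nephron progenitors, and LSD1 has been described to remove methyl groups from the p53 protein as well as from histones.

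Several libraries stood apart before any result on these genes. Total counts ran from 19524945 to 28544511. Summed over a list of 16 proximal tubule genes, which define the main tubule segment of the kidney, the level was 634 to 2671 CPM in the controls, lowest in control replicate 2. It was 87.2 to 411 CPM in the knockouts, highest in knockout replicate 3, and 1 of the 16 genes, Kap, was at 0 in a library. Summed over 14 adrenal genes, the level was 3599 CPM in knockout replicate 1, 503 in knockout replicate 4 and 240 in control replicate 4, against 44.7 to 76.5 CPM in the other 5 libraries. Of the 14, Cyp11b1 and Cyp11b2 were at 0 in at least 1 library. The summed level of 4 Y-linked genes was 0.76 to 2.63 CPM in control replicate 2 and knockout replicates 1 and 4, and 229 to 289 CPM in the other 5 libraries. In the knockouts, all 16 proximal tubule genes (median log2 fold change −3.02), 5 of 7 genes of the thick ascending limb, 2 of 7 of podocytes and 1 of 8 of endothelium were called lower by edgeR, where 8.27% of all tested genes were. In turn, 2 of 9 of leukocytes and 3 of 9 of fibroblasts were called higher, where 6.61% of all tested genes were, and where a call is an adjusted p under 0.05. The part of these differences in the results below was not tested, and in such bulk samples fewer cells of a type and less RNA per cell cannot be told apart.

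The p53 protein is known to recognise a pair of half-sites of 10 bases each. Short stretches around exact half-sites near a start site are printed to show which members carry at least 1 there, namely 7 p53 targets and Trp53. The consensus half-site reads the same on both strands, and exact matches were sought in the RefSeq promoter windows of GRCm38.p6, each reaching from 250 bases before to 50 bases after a transcription start. Windows were at hand for 25 of the 32 members. A half-site was present in 8 of these 25 genes (32%), against 9.55% of all 27025 genes with a window and 8.36% of all 32851 windows. The 8 were 7 of the 15 p53 targets with a window and Trp53 itself, and none of the 7 other apoptosis genes had one. The following stretches are written 5′ to 3′ on the strand of the gene, with each half-site in capitals.
Cdkn1a, chr17:29090896-29090947, plus strand: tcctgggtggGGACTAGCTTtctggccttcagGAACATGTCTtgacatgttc
Ccng1, chr11:40755452-40755481, minus strand: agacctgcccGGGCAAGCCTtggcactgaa
Mdm2, chr10:117710925-117710954, minus strand: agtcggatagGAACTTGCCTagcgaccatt
Sesn1, chr10:41887256-41887285, plus strand: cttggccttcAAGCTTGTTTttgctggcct
Bax, chr7:45467080-45467109, minus strand: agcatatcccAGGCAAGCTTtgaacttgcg
Aen, chr7:78895927-78895956, plus strand: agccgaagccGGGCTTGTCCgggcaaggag
Ei24, chr9:36797325-36797354, minus strand: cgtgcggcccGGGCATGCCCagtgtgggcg
Trp53, chr11:69580274-69580303, plus strand: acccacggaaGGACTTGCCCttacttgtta
The window of Sesn1 belongs to a start inside the gene, and the stretches of Aen and Ei24 overlap an annotated exon. In Cdkn1a alone among these, 2 exact half-sites stood in 1 window, with 12 bases between them. Whether p53 reads these 2 as its pair was not tested. Near matches were not sought, and the 10 bases that end the printed stretch of Cdkn1a miss the consensus in the first base only. A match is a description of the letters, not evidence of binding, and no match says only that these letters are not in the window.

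At the level of the whole set, the genes did not move in 1 direction. Of 31 members tested, 3 rose in the knockout (Apaf1, Mdm4 and Sesn1) and 1 fell (Aen) at an adjusted p under 0.05. These 4 members are 12.9% of those tested, and 14.9% of all tested genes were called, 6.61% upward and 8.27% downward. The members' share is near the background. Among the 22 p53 targets, 11 had a positive and 11 a negative log2 fold change, with a median of 0.01, and 1 was called in each direction. Among the 7 other apoptosis genes, 3 had a positive and 4 a negative value, with a median of −0.03, and 1 was called, upward. That gene was Apaf1, itself also a described p53 target. The median over all tested genes was 0.0044. Neither class had a common direction. The median size of the log2 change, sign ignored, was 0.28 and 0.21, beside 0.24 for all tested genes.

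**Figure D1:**
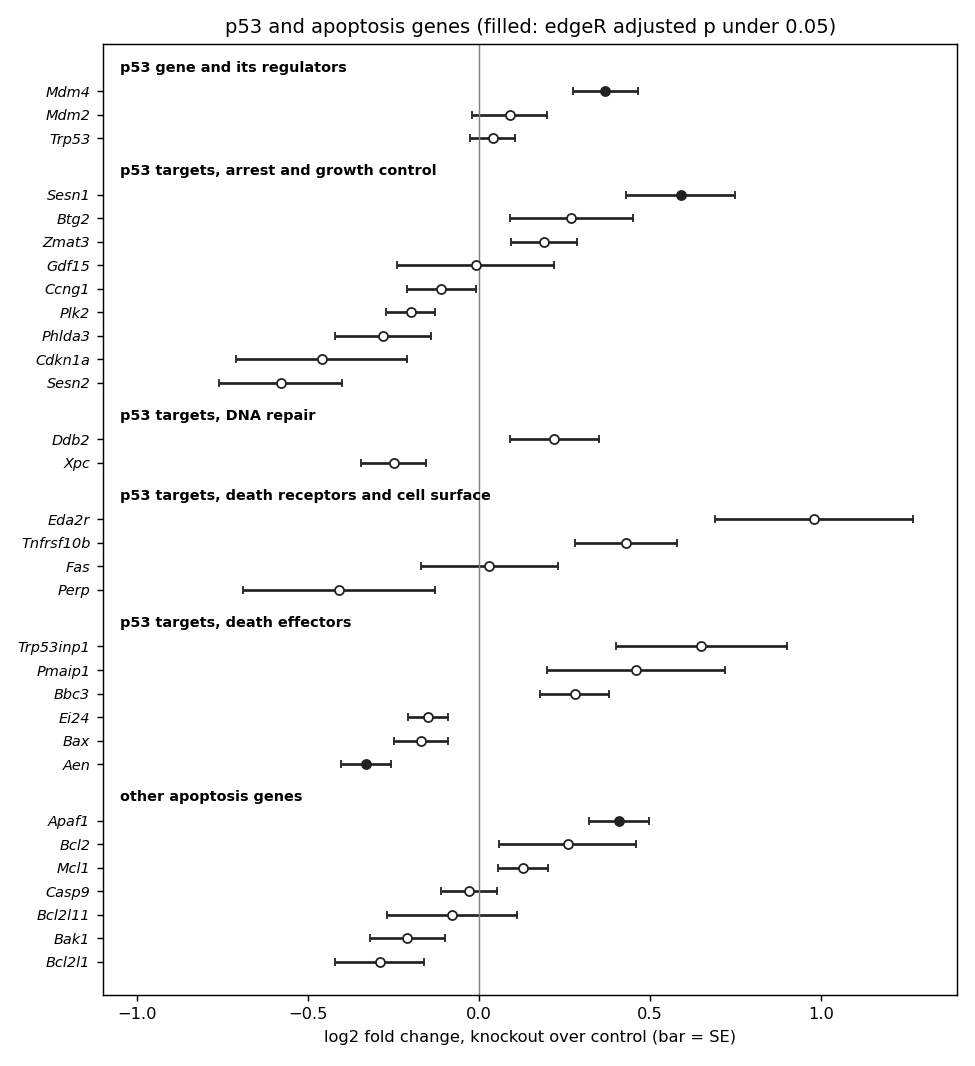
Log2 fold change of knockout over control for the 31 tested members, grouped by role, with bars for the standard error and filled points for an edgeR adjusted p under 0.05. Values lie on both sides of 0 in the target groups, from −0.58 for Sesn2 to 0.98 for Eda2r, and only Mdm4, Sesn1, Aen and Apaf1 are filled.

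Trp53 (ENSMUSG00000059552, chromosome 11, 69580359 to 69591873, GRCm38) had nearly the same level in every library. It stood at 122, 118, 120 and 109 CPM in control replicates 1 to 4 and at 122, 131, 118 and 113 CPM in knockout replicates 1 to 4. The groups overlapped, and the log2 fold change was 0.04 (SE 0.065, adjusted p 0.649). Messenger RNA is only one layer of p53 control, since the protein is regulated mostly by its stability.

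Mdm4, which encodes an inhibitor of p53 that binds its activation domain, was the one gene called by edgeR among the regulators (ENSMUSG00000054387, chromosome 1, 132959484 to 133030561). Its level was 124, 154, 121 and 120 CPM in the controls and 181, 161, 155 and 174 CPM in the knockouts. Every knockout lay above every control, but by a narrow margin, because control replicate 2 was far above the other 3 controls and almost level with knockout replicate 3. Knockouts lay wholly above controls in 4 of the 31 members and in 9.29% of all tested genes, and wholly below in 1 member and in 9.58% (18.9% in either direction). The rise of Mdm4 was 0.37 on the log2 scale (SE 0.094, adjusted p 0.0341), or 29.4%. A processed pseudogene lies on the opposite strand within the gene, and whether reads were assigned by strand is not given in the sources used here.

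Mdm2 encodes the ligase that marks p53 for degradation, and p53 induces it in turn. It was at 69.3, 86.3, 72.4 and 59.5 CPM in the controls and at 83.5, 76.3, 67.8 and 78.8 CPM in the knockouts. The controls spanned the whole range of the knockouts, and the change was 0.09 (SE 0.11, adjusted p 0.588). Cdkn2a, which encodes the p16 protein and the Mdm2 inhibitor Arf from overlapping frames, had 1 to 13 counts per library. Its level was 0.0404 to 0.603 CPM in the controls and 0.0422 to 0.502 CPM in the knockouts, too low for the test, and gene counts do not separate its 2 products.

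**Figure D2:**
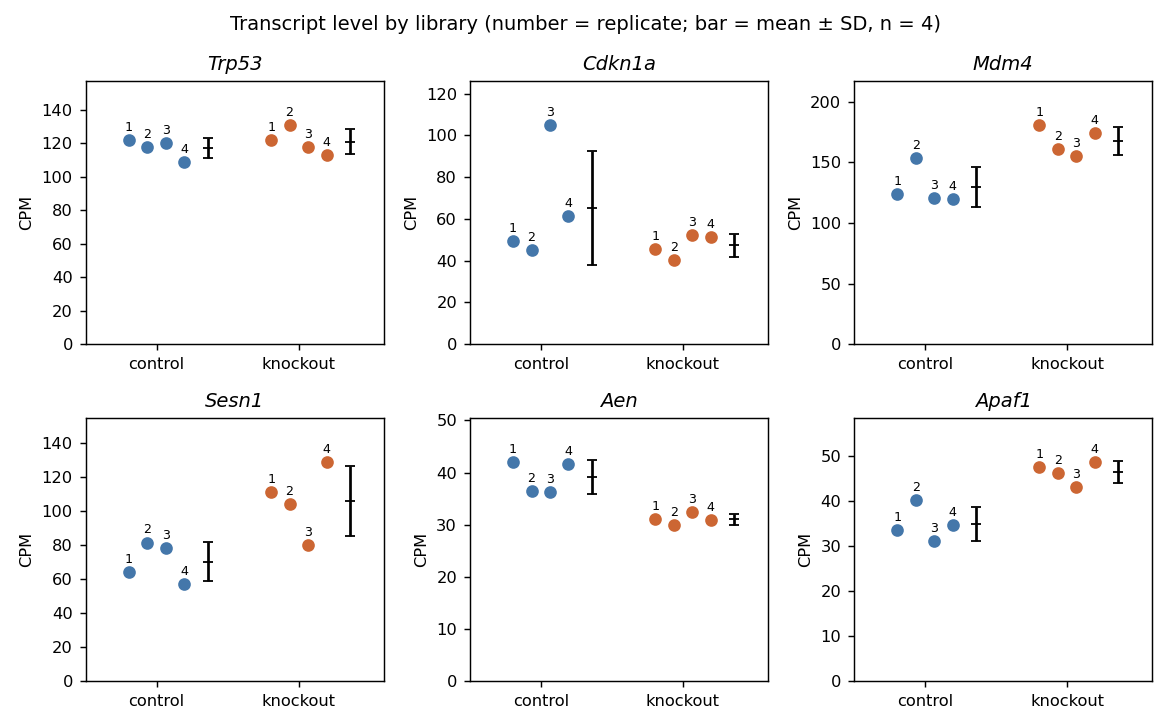
CPM of Trp53, Cdkn1a and the 4 called members in each library, numbered by replicate, with mean ± SD (n = 4). The groups overlap in Trp53, control replicate 3 is the high point of Cdkn1a at 105 CPM, and control replicate 2 and knockout replicate 3 approach each other in Mdm4 and Sesn1.

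Among the p53 targets that arrest the cell cycle or restrain growth, Sesn1 rose and the other 8 were not called by edgeR. DESeq2 also called Sesn2, and limma-voom also called Sesn2, Phlda3, Plk2 and Zmat3. Of all tested genes, edgeR called 14.9%, DESeq2 23.9% and limma-voom 44.9%. Sesn1 (ENSMUSG00000038332, chromosome 10, 41809935 to 41908424) encodes a sestrin, a stress-induced inhibitor of the mTORC1 growth pathway. It stood at 64, 81.4, 78.3 and 56.9 CPM in the controls and at 111, 104, 79.7 and 129 CPM in the knockouts. Knockout replicate 3 was within the range of the controls, while the other 3 knockouts lay above all 4. The rise was 0.59 (SE 0.16, adjusted p 0.0392), or 51%. Another annotated entry, 9930024M15Rik, overlaps Sesn1 on the same strand, so its counts are uncertain to that extent.

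Its relative Sesn2 leaned the other way without a call. It was at 16.2, 13.2, 20.5 and 22.1 CPM in the controls and at 11.4, 12.8, 13.8 and 10.2 CPM in the knockouts. Only control replicate 2 and knockout replicate 3 crossed, and the log2 fold change was −0.58 (SE 0.18, adjusted p 0.0545). Sesn2 lies 4.04 Mb from Kdm1a on chromosome 4. Casp9, at 5.19 Mb on the other side, differed by −0.03 (SE 0.082, adjusted p 0.792).

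Cdkn1a, the gene for the cyclin-dependent kinase inhibitor p21 and a much used readout of p53, was not called by edgeR, DESeq2 or limma-voom (ENSMUSG00000023067, chromosome 17, 29090979 to 29100722). Its level was 49.4, 45.3, 105 and 61.4 CPM in the controls and 45.7, 40.2, 52.5 and 51.1 CPM in the knockouts. Control replicate 3 stood far above the other 7 libraries, whose values overlapped between the genotypes. The log2 fold change of −0.46 (SE 0.25, adjusted p 0.206) became −0.14 without control replicate 3, with an adjusted p of 0.526.

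The other targets of this group moved little. Ccng1, the gene for cyclin G1, was at 44.7 to 64.7 CPM in the controls and 50.3 to 53.7 CPM in the knockouts (log2 fold change −0.11, SE 0.1). Phlda3, which encodes an inhibitor of the kinase Akt, was at 43.6 to 66.4 and 38.6 to 53.1 CPM (−0.28, SE 0.14, adjusted p 0.188). For Plk2, a polo-like kinase gene, the ranges were 49.8 to 56.1 and 43.2 to 50 CPM (−0.20, SE 0.072, adjusted p 0.0814). Zmat3, which encodes an RNA-binding zinc finger protein, was at 15.7 to 19.3 and 18.1 to 21 CPM (0.19, SE 0.096). Btg2, an antiproliferative gene, was at 28.9 to 45 and 34.9 to 53.6 CPM (0.27, SE 0.18). Gdf15, which encodes a secreted stress cytokine, was the least abundant of the group at 1.86 to 3.29 CPM over all 8 libraries (−0.01, SE 0.23). All of these ranges overlapped.

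The 2 DNA repair targets had log2 fold changes of opposite sign, and neither was called by edgeR or DESeq2. By edgeR, 1 had an unadjusted p under 0.05, where 35.1% of all tested genes did. Limma-voom called Xpc, where it called 44.9% of all tested genes. Xpc, the gene for a sensor of bulky DNA lesions, was at 70.2, 53, 70.1 and 67.2 CPM in the controls and at 55, 51.7, 58.7 and 53.7 CPM in the knockouts. Here 3 controls lay above every knockout and control replicate 2 lay among the knockouts (log2 fold change −0.25, SE 0.096, adjusted p 0.103). Without control replicate 2, the only control with low Y-linked transcripts, the adjusted p was 0.00409. Without control replicate 1 it was 0.251, and 1 of the 8 edgeR fits that left out 1 library called Xpc. Ddb2, which encodes a UV damage recognition protein, was at 13.4 to 16.9 and 13.9 to 19 CPM (0.22, SE 0.13, adjusted p 0.257).

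Of the 4 targets at the cell surface, edgeR called none, although Eda2r had the largest log2 fold change of all members. By edgeR, 2 had an unadjusted p under 0.05, where 35.1% of all tested genes did. DESeq2 called Eda2r and Tnfrsf10b, and limma-voom called Eda2r and Perp, where these tools called 23.9% and 44.9% of all tested genes. Eda2r, an X-linked gene for a receptor of the tumour necrosis factor family (chromosome X, 97333840 to 97377216), was at 2.83, 3.85, 2.18 and 1.59 CPM in the controls. In the knockouts it was at 4.94, 5.42, 3.56 and 6.62 CPM. Only control replicate 2 and knockout replicate 3 crossed, and the change was 0.98 (SE 0.29, adjusted p 0.0538). Without control replicate 2 it was 1.22 with an adjusted p of 0.00972, and without knockout replicate 3 it was 1.14 with an adjusted p of 0.0372. Without knockout replicate 4 the edgeR adjusted p was 0.144, and 2 of the 8 fits that left out 1 library called Eda2r. Control replicate 2 was the only control with low Y-linked transcripts. Leaving it out therefore sets controls with high levels against knockouts of both kinds.

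Tnfrsf10b, the gene for the mouse TRAIL death receptor, was at 7.46, 7.14, 6.26 and 7.09 CPM in the controls and at 8.87, 11.5, 9.51 and 7.7 CPM in the knockouts. The groups did not overlap, and the test gave 0.43 (SE 0.15, adjusted p 0.0786). Fas, the receptor of Fas ligand, was at 4.64 to 7.55 and 4.81 to 6.34 CPM (0.03, SE 0.2). Perp, which encodes a membrane protein of cell junctions, was at 27.5, 15.6, 21.9 and 28.9 CPM in the controls and at 14.9, 11.6, 27.3 and 16.7 CPM in the knockouts (−0.41, SE 0.28, adjusted p 0.311). In Perp, control replicate 2 lay with the low knockouts and knockout replicate 3 with the high controls.

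Among the targets that act in cell death, Aen fell and the other 5 were not called by edgeR. DESeq2 also called Trp53inp1, and limma-voom also called Trp53inp1, Bbc3, Bax and Ei24. Of all tested genes, edgeR called 14.9%, DESeq2 23.9% and limma-voom 44.9%. Aen encodes a nuclease that digests DNA during p53-dependent apoptosis (ENSMUSG00000030609, chromosome 7, 78895854 to 78911209). Its level was 42.1, 36.4, 36.2 and 41.7 CPM in the controls and 31, 29.9, 32.4 and 30.9 CPM in the knockouts. The knockouts were closely grouped and all below the controls. The log2 fold change was −0.33 (SE 0.074, adjusted p 0.0248), a change of −20.6%.

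Bax and Ei24 had small negative changes. Bax, the pore-forming protein gene, was at 106, 88.9, 101 and 107 CPM in the controls and at 83.8, 85.4, 97.3 and 92.1 CPM in the knockouts (−0.17, SE 0.079, adjusted p 0.166). Ei24, which encodes a membrane protein of the endoplasmic reticulum, was at 149 to 165 and 138 to 151 CPM (−0.15, SE 0.058, adjusted p 0.106). In both genes control replicate 2 lay within the range of the knockouts and the other 3 controls lay above every knockout.

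The BH3-only targets Bbc3 and Pmaip1 had positive log2 fold changes that edgeR did not call. Bbc3, which encodes PUMA, was at 15.4, 13, 14.4 and 13.6 CPM in the controls and at 16.9, 15.5, 18.8 and 17.3 CPM in the knockouts. Its groups did not overlap, but the gap between control replicate 1 and knockout replicate 2 was minimal (0.28, SE 0.1, adjusted p 0.0862). Pmaip1, which encodes NOXA, was at 4.64 to 6.36 and 4.47 to 11.3 CPM, with knockout replicate 3 the highest and knockout replicate 2 the lowest of all 8 (0.46, SE 0.26, adjusted p 0.231). Trp53inp1, the gene for a p53-induced nuclear protein, was at 40.4, 68.1, 64.2 and 32.8 CPM in the controls and at 94.7, 72.5, 59.8 and 94.9 CPM in the knockouts. Knockout replicate 3 lay below 2 of the controls (0.65, SE 0.25, adjusted p 0.101).

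**Figure D3:**
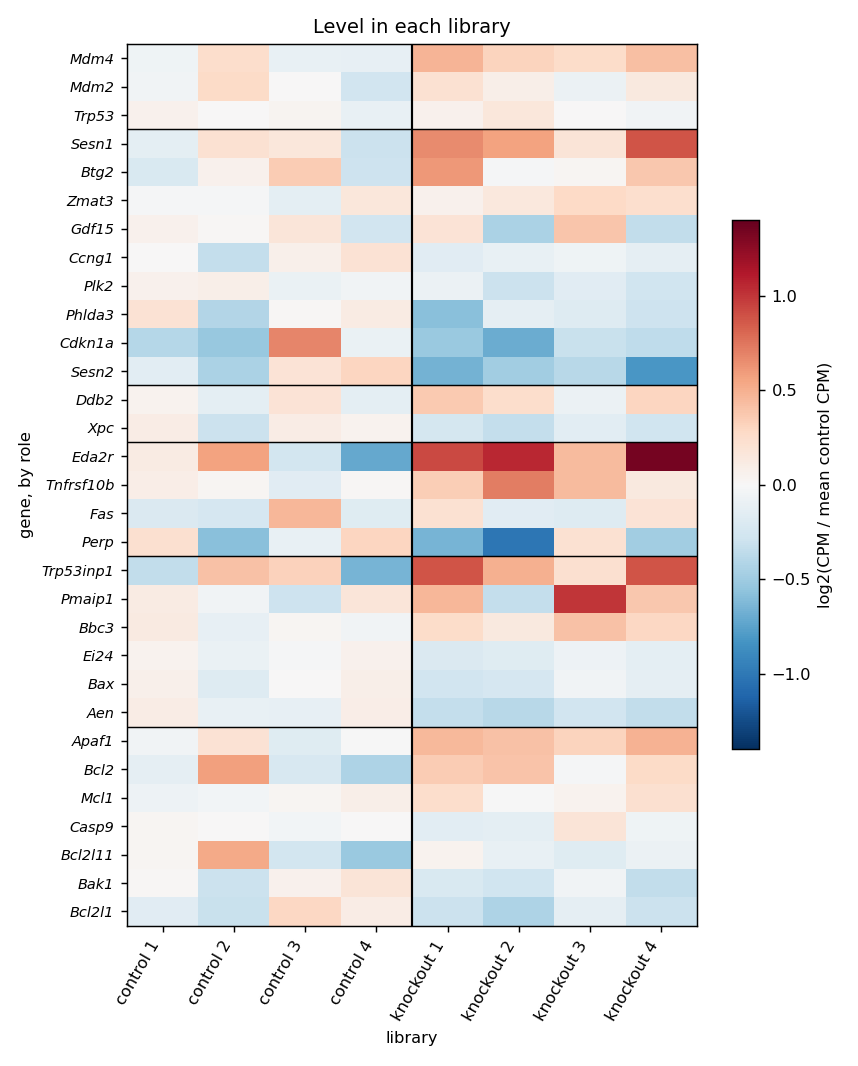
Level of each tested member in each library as log2 of its CPM over the mean control CPM, ordered by role and then by fold change. Control replicate 2 and knockout replicate 3 show the pattern of the other genotype in Perp, and rows such as Trp53 are pale throughout.

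Among the other apoptosis genes, Apaf1 rose and the remaining 6 were not called by edgeR. Limma-voom also called Bcl2, Bcl2l1 and Bak1, and DESeq2 called Apaf1 alone. Of all tested genes, edgeR called 14.9%, DESeq2 23.9% and limma-voom 44.9%. Apaf1 encodes the scaffold of the apoptosome, the complex that activates caspase 9 (ENSMUSG00000019979, chromosome 10, 90989311 to 91082770), and it is itself a described p53 target. It was at 33.6, 40.1, 31 and 34.6 CPM in the controls and at 47.6, 46.2, 43.1 and 48.7 CPM in the knockouts. All knockouts lay above all controls, with control replicate 2 the nearest. The rise was 0.41 (SE 0.087, adjusted p 0.0218), or 33.3%, the smallest adjusted p of all members. Casp9, the caspase that Apaf1 activates, was at 35.1 to 36.8 CPM in the controls and 32.5 to 40.9 CPM in the knockouts.

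The genes that restrain the mitochondrial step differed among themselves. Bcl2 was at 55.9, 91.1, 52.2 and 45.5 CPM in the controls and at 78.1, 80.6, 60.7 and 73.6 CPM in the knockouts. Control replicate 2 was the highest of all 8 libraries, while the other 3 controls lay below every knockout (0.26, SE 0.2, adjusted p 0.379). Without control replicate 2, the only control with low Y-linked transcripts, the change of Bcl2 was 0.51, with an adjusted p of 0.0085. Without control replicate 4 the adjusted p was 0.676, and 1 of the 8 edgeR fits that left out 1 library called Bcl2. Bcl2l1, which encodes BCL-XL, was at 70.6 to 107 and 64.6 to 79.9 CPM (−0.29, SE 0.13, adjusted p 0.146). Mcl1 had the highest CPM of all members, 210 to 233 in the controls and 220 to 261 in the knockouts (0.13, SE 0.073, adjusted p 0.224).

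Of the genes that promote this step, Bak1, the partner of Bax, was at 44.3 to 61.8 CPM in the controls and 43.2 to 52.9 CPM in the knockouts (−0.21, SE 0.11, adjusted p 0.189). Protein-coding genes on the opposite strand overlap Bak1, Casp9 and Ddb2, and one on the same strand overlaps Bax, so their counts are uncertain to that extent. The same holds for other annotated entries, which overlap Sesn1, Sesn2, Fas and Bcl2 on the same strand. On the opposite strand such entries overlap Apaf1, Cdkn1a and Ei24. Bcl2l11, which encodes BIM, was at 48.5, 68.8, 39.9 and 33.2 CPM in the controls and at 49.1, 44.2, 42.2 and 45.1 CPM in the knockouts. Control replicate 2 was again the highest of all libraries (−0.08, SE 0.19, adjusted p 0.802).

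Levels between genes can be compared only per length. Per kilobase of exon and averaged over the 8 libraries, Mcl1 was first at 67.7 CPM per kb and Bax second at 60.4, followed by Phlda3 at 33.7, Ei24 at 31, Trp53 at 29.5 and Cdkn1a at 25.3. Bax thus stood well above Bak1, at 21.1, and Mcl1 above Bcl2l1 and Bcl2, at 17.3 and 7.34. Apaf1 was at 4.5 and Casp9 at 6.87 CPM per kb. The death receptor genes Fas (3.06), Tnfrsf10b (2.58) and Eda2r (0.658) were near the bottom of the order, with Gdf15 at 1.36 and Cdkn2a last at 0.241. Neighbours such as Ei24 and Trp53, or Bcl2 and Bbc3 (both 7.34), had overlapping ranges over the libraries.

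The count of called members changed with single libraries. Control replicate 2 was nearer to the mean of the knockouts than to that of the other controls in 18 of 31 members (58.1%), as in 66.3% of all tested genes. Knockout replicate 3 was nearer to the controls in 18 of 31 (58.1%), against 44.8% of all tested genes. The other 6 libraries were nearer to the other genotype in 4 to 9 members each (12.9% to 29%), against 22.7% to 28.2% of all tested genes.

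Without control replicate 2, 15 members (48.4%) were called, where 37.4% of all genes were. Of these, 6 were higher (18.4% of all genes) and 9 lower (19%). With control replicate 2 and knockout replicate 3 both left out, 16 members (51.6%) were called, where 42.7% of all genes were. In that fit Mdm4, Apaf1, Bcl2, Sesn1, Eda2r and Trp53inp1 rose, as did 20.5% of all genes. Xpc, Bak1, Perp, Aen, Sesn2, Bax, Bcl2l1, Phlda3, Ei24 and Ccng1 fell, as did 22.2% of all genes. Those that fell included the 2 main pore-forming genes and an inhibitor of them, and those that rose included another inhibitor and the apoptosome scaffold. The p53 targets alone then numbered 3 called upward and 8 downward. Without knockout replicate 3 alone, 5 members were called, where 17% of all genes were, 4 higher (7.74% of all genes) and 1 lower (9.3%). Control replicate 2 and knockout replicate 3 were the libraries most often nearer to the other genotype in these same data. Leaving them out therefore favours more calls, and nothing is concluded from the rise. Without control replicate 2 all controls had high Y-linked transcripts, while knockout replicates 1 and 4 had low ones.

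Without control replicate 1, 3 or 4, or without knockout replicate 1, 2 or 4, no member was called by edgeR, with 8 to 10 members at an unadjusted p under 0.05. The shares of all genes called in these 6 fits were 2.86%, 2%, 3.65%, 3%, 3.15% and 0.819%. In these 6 fits the adjusted p was 0.0739 to 0.104 for Mdm4, 0.0812 to 0.107 for Sesn1, 0.0555 to 0.0826 for Aen and 0.0562 to 0.0744 for Apaf1. The log2 fold changes stayed between 0.33 and 0.39, 0.50 and 0.65, −0.37 and −0.28, and 0.36 and 0.42. At an unadjusted p under 0.05, 12 of the 31 members passed with all 8 libraries, 7 upward and 5 downward, beside 35.1% of all tested genes. That share was not computed for the other fits, so nothing is read from their counts at an unadjusted p.

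The test used also changed the count. DESeq2 called 8 members (25.8%, where 23.9% of all genes were called), 6 higher and 2 lower, where 10.5% and 13.4% of all genes were. It added Eda2r, Trp53inp1 and Tnfrsf10b above and Sesn2 below. Limma-voom with sample weights called 18 members (58.1%), 8 higher and 10 lower, where 22% and 22.9% of all genes were. The same 4 members were called by edgeR with DESeq2 size factors (14.9% of all genes), without the filter on low counts (7.36%), with only genes above a mean of 1 CPM (17.3%) and with a covariate for Y-linked transcripts (11.3%). With the replicate number as a block, 3 members were called, where 17.5% of all genes were, and Sesn1 was not among them (adjusted p 0.0609).

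**Figure D4:**
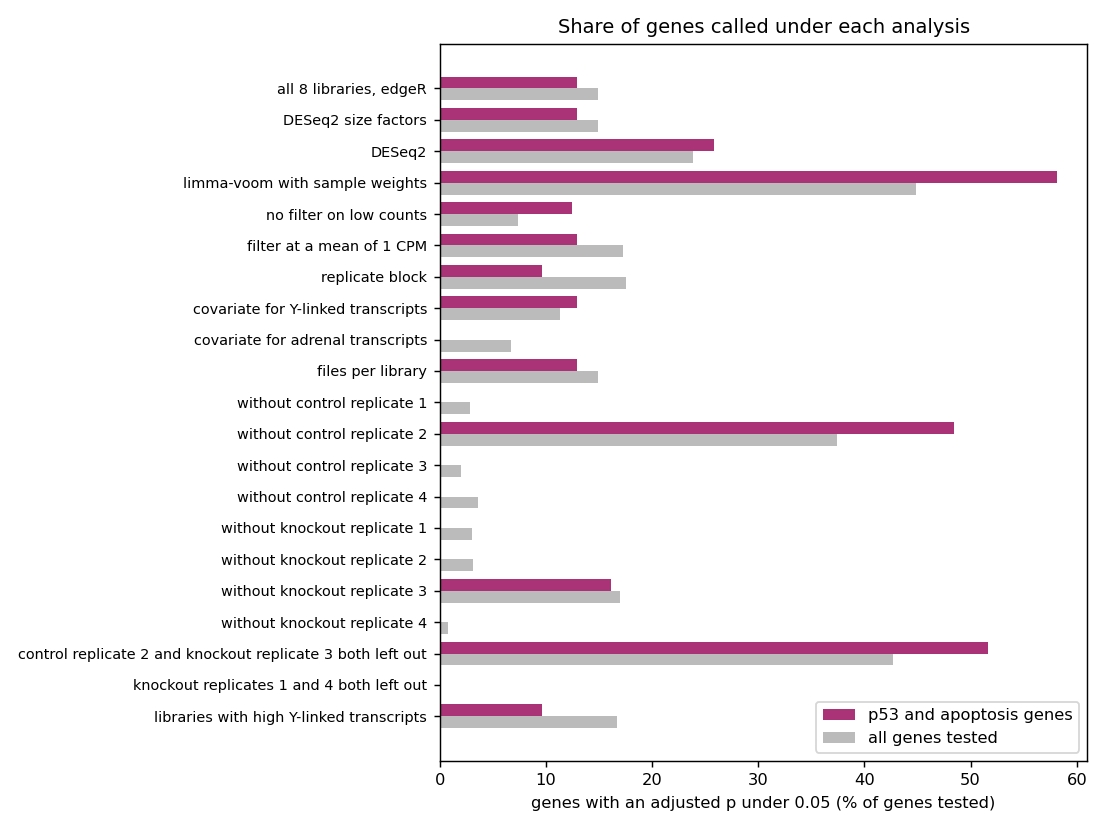
Percent of tested genes with an adjusted p under 0.05, for the members and for all genes, under each analysis. The members' share is 0 in 6 of the 8 analyses that leave out 1 library and reaches 58.1% with limma-voom, where all genes stand at 44.9%.

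The calls were also recomputed with regard to adrenal and Y-linked transcripts. With an adrenal covariate no member was called by edgeR, where 6.7% of all genes were. There 9 members had an unadjusted p under 0.05, and the share of all genes at that threshold was not computed. Here the adjusted p was 0.0879 for Mdm4, 0.106 for Sesn1, 0.0562 for Aen and 0.0563 for Apaf1. Without knockout replicates 1 and 4, 0 members and 1 gene in all (0.00522%) were called by edgeR. An unadjusted p under 0.05 was found for 4 members, again without a share of all genes. The changes of Mdm4, Sesn1, Aen and Apaf1 were then 0.28, 0.39, −0.33 and 0.36. Within the 5 libraries with high Y-linked transcripts, 3 controls and 2 knockouts, 3 members were called (9.68%, against 16.7% of all genes), 2 higher (8.85% of all genes) and 1 lower (7.84%). These were Mdm4 at 0.38, Apaf1 at 0.44 and Xpc at −0.32, with adjusted p values of 0.0203, 0.0269 and 0.0495. The 3 libraries with low Y-linked transcripts hold a single control.

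Of 25 additional p53 targets, all tested, edgeR called 3 higher and 2 lower, where 6.61% and 8.27% of all tested genes were called, and the median log2 fold change was 0.03. DESeq2 called 10 of them and limma-voom 13, where these tools called 23.9% and 44.9% of all tested genes. Sesn3, the third sestrin gene, rose from 90.3 ± 11.7 to 141 ± 18.6 CPM (0.64, SE 0.12, adjusted p 0.0163). Pml, which encodes the scaffold of a nuclear body that binds p53, rose from 43.3 ± 3.08 to 53.2 ± 2.57 CPM (0.30, adjusted p 0.0291). Ckap2, a gene of the mitotic spindle, rose by 0.36 (adjusted p 0.0489). Dcxr, an enzyme of sugar metabolism that is abundant in kidney tubules, fell from 36.1 ± 11.6 to 18.3 ± 2.66 CPM (−0.98, adjusted p 0.0263). Rps27l, a ribosomal protein relative, fell from 110 ± 5.61 to 93.9 ± 2.29 CPM (−0.23, adjusted p 0.0318).

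Of 16 enzymes and relatives of p53, including the kinases Atm, Atr, Chek1 and Chek2, edgeR called Setd7 alone, DESeq2 called 3 and limma-voom 7. Of all tested genes, edgeR called 14.9%, DESeq2 23.9% and limma-voom 44.9%. Setd7, which encodes a lysine methyltransferase, rose from 40 ± 7.25 to 58.4 ± 6.13 CPM (0.54, adjusted p 0.0283). The median of the list was 0.08.

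In the apoptosis machinery beyond the members, the calls by edgeR stood beside the 6.61% of all tested genes called higher and the 8.27% called lower. Of 9 tested BCL2 family genes, Bid fell from 22.2 ± 4.81 to 13.3 ± 1.69 CPM (−0.73, adjusted p 0.028). Bid encodes the BH3-only protein that links death receptors to mitochondria. Of 12 caspase and mitochondrial release genes, 2 fell. Cycs, the cytochrome c gene, went from 156 ± 50.1 to 81.6 ± 12.5 CPM (−0.94, adjusted p 0.0292), and Endog, a mitochondrial nuclease gene, from 17.1 ± 6.35 to 6.82 ± 1.56 CPM (−1.32, adjusted p 0.0207). Both proteins reside in mitochondria of healthy cells, and the summed proximal tubule list was lower in the same libraries, as given above. Its part in the result was not tested. Of 7 inhibitors of apoptosis, 2 rose, and DESeq2 and limma-voom called the same 2. Those tools called 3 and 4 of the BCL2 family genes, and 4 each of the caspase and release genes, beside 23.9% and 44.9% of all tested genes. Xiap, a direct caspase inhibitor, rose from 118 ± 5.59 to 142 ± 4.62 CPM (0.27, adjusted p 0.0219), and Birc2, a ubiquitin ligase of death receptor complexes, by 0.24 (adjusted p 0.0411).

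Of 7 tested death receptor ligands and adaptors, none was called by edgeR or DESeq2. By edgeR, 2 had an unadjusted p under 0.05, where 35.1% of all tested genes did. Limma-voom called 4, where it called 44.9% of all tested genes. The smallest adjusted p was that of Fadd, the adaptor of Fas, at 0.116 (−0.35). Fasl and Tnf had 0 counts in at least 1 library and were too low to be tested.

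Stress programmes that share targets with p53 gave 1 call by edgeR. Sesn2, Gdf15 and Bbc3 are also known to respond to the integrated stress response through Atf4. Of 13 genes of that response, edgeR called 1 lower, where 8.27% of all tested genes were, and the median was −0.21. DESeq2 called 1 and limma-voom 3, where these tools called 23.9% and 44.9% of all tested genes. The edgeR call was Asns, the asparagine synthetase gene. It fell from 15.1 ± 1.51 to 7.76 ± 0.861 CPM (−0.96, SE 0.13, adjusted p 0.00815) and kept its call in all 8 fits that left out 1 library. Without knockout replicates 1 and 4, where edgeR called 1 gene in all, Asns was not called (adjusted p 0.1). Btg2 and Plk2 also respond as immediate early genes. Of 10 such genes none was called by edgeR, with 1 at an unadjusted p under 0.05, where 35.1% of all tested genes were. This was Ier3 (−0.68, adjusted p 0.0892), the 1 gene of the list that DESeq2 and limma-voom called. The summed level of the 10 genes was 229 to 412 CPM in the controls and 248 to 415 CPM in the knockouts. Of 12 cell cycle genes none was called by edgeR, with 3 at an unadjusted p under 0.05, where 35.1% of all tested genes were. DESeq2 called 2 and limma-voom 4, where these tools called 23.9% and 44.9% of all tested genes. The sums of the cell cycle genes were 1584 to 1753 CPM in the controls and 1545 to 1703 CPM in the knockouts. Of the other called genes of these pathway lists, Sesn3 kept its call in 5 and Endog in 3 of those 8 fits. The remaining 9 kept theirs only without control replicate 2 or without knockout replicate 3.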

How the data were processed

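Messenger RNA of 4 control and 4 knockout kidneys was captured with oligo-dT beads and made into libraries with a NEBNext Ultra kit, per the labels' protocols. The authors deposited whole-number counts per gene, not normalized. Per the submitters' processing notes, Trimmomatic 0.36, STAR 2.5.2b and featureCounts of Subread 1.5.2 were used with GRCm38. The strand setting and the handling of reads that match several genes are not given in the sources used here.

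The table of the whole series was used. It had 49315 gene IDs and 0 cells that differed from the files per library. GENCODE M21 symbols were found for 49056 IDs, of which 91.4% had the same start and end. One count stood for 0.03503 to 0.05122 CPM before TMM scaling. No pair of libraries was alike within sampling noise (chi-square per degree of freedom 11.9 or more).

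Counts were scaled by TMM, filtered with filterByExpr and compared by genotype in R 4.3.3. The test was edgeR 4.0.16 (glmQLFit and glmQLFTest), and p values were adjusted over 18485 genes by Benjamini-Hochberg. Standard errors come from the log2 fold change and the F statistic. CPM uses TMM library sizes. The script was tested on simulated data. DESeq2 1.42.0, limma-voom (limma 3.58.1) and the other fits of the closing section were alternatives. All 32 members are named. Of each further pathway list, the called genes (at most 5), or else the gene with the smallest adjusted p, are named. Members and lists were chosen with earlier results of these data known.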

Additional observations from a re-analysis of the deposited data

Results flagged for a closer look

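In 94 sets of 4 libraries, those of the named genes in each genotype, 1 library stood far from the other 3 in 7 sets (7.45%), where chance flags about 5%. Among the members these were Fas, at 7.55 CPM in control replicate 3 against 4.64 to 4.86 CPM in the other controls, and Mdm4, at 154 CPM in control replicate 2 against 120 to 124 CPM. Among the further genes, control replicate 2 was high for Setd7 (50.8 CPM against 34.9 to 37.2). Knockout replicate 3 was high for Rps27l (97.4 CPM against 92.6 to 93) and Endog (9.17 CPM against 6.01 to 6.07) and low for Birc2 (61.9 CPM against 67.7 to 68.6). Knockout replicate 2 was low for Dcxr (14.3 CPM against 19.1 to 19.9). In the 5 sets of control replicate 2 and knockout replicate 3, the library that stood apart did so toward the other genotype.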

How the results depend on the processing

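DESeq2 size factors, the files per library, the Y-linked covariate and both filters left the calls of all genes and of the members within 1.5 times. DESeq2 called 4410 genes, with 4 p53 targets higher and 2 lower. Limma-voom with sample weights called 8302 genes, with 5 p53 targets higher and 8 lower (median −0.11), and 2 other apoptosis genes higher and 2 lower (median 0.11). The adrenal covariate left 1239 genes, and 0 p53 targets in either direction and 0 other apoptosis genes higher. With control replicate 2 and knockout replicate 3 left out, 7903 genes were called, with 3 p53 targets higher and 8 lower (median −0.08), and 2 other apoptosis genes higher and 2 lower (median 0.14). Those left-out libraries lie toward the other genotype in these same data, so their removal favours more calls. Both alternatives that follow were chosen after seeing the data. Without knockout replicates 1 and 4, 1 gene was called, with 0 p53 targets in either direction and 0 other apoptosis genes higher (median 0.02), and Kdm1a changed by −0.28 without a call. Among libraries with high Y-linked transcripts, 0 p53 targets were called higher, the other apoptosis median was 0.04, and Kdm1a changed by −0.28 without a call. The cause was not tested.

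With 1 library left out, all calls ranged from 153 to 7084, p53 targets from 0 to 3 higher and 0 to 7 lower (median −0.06 to 0.09), other apoptosis genes from 0 to 2 in each direction (median −0.05 to 0.12), and Kdm1a from −0.29 to −0.24. Fas ranged from −0.04 to 0.23, Gdf15 from −0.15 to 0.11, Casp9 from −0.09 to 0.00 and Bcl2l11 from −0.22 to 0.15.

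The sign turned, without a call, in 4 members. Fas changed by −0.07 with limma-voom, −0.01 with the Y-linked and −0.09 with the adrenal covariate, −0.17 without knockout replicates 1 and 4 and −0.24 among libraries with high Y-linked transcripts. Bcl2l11 changed by 0.11 with limma-voom, 0.18 with control replicate 2 and knockout replicate 3 left out and 0.10 among libraries with high Y-linked transcripts. In the last 2 alternatives above and with the adrenal covariate, Gdf15 changed by 0.04, 0.05 and 0.01, and Casp9 by 0.03, 0.04 and 0.01. Of the other fits of single members, 517 kept direction and side of the threshold, 43 gained a call and 35 lost one.

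With the replicate number as a block, Sesn1 lost its call (adjusted p 0.0609), which left 0 p53 targets called higher, and Mdm4, Aen and Apaf1 kept theirs. The labels do not say whether same-numbered libraries are paired. Deviations of same-numbered libraries correlated at −0.108, 0.329, 0.228 and −0.059, and those of other pairs at −0.468 to 0.398. These correlations cannot decide on a pairing, because both kinds of pairs spread widely.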
